A study of Mus musculus with 45 samples.

Results

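Cytosolic ribosomes are built from ribosomal RNA and the ribosomal proteins of a small (40S) and a large (60S) subunit, and the mRNAs of these proteins were followed here in cultured cells of the developing mouse cortex. The members were all genes whose symbol is Rpl or Rps with a number and at most a final a, x, l or y, together with Rplp0, Rplp1, Rplp2 and Rpsa. This rule found 82 of the 53491 genes measured, of which 31 belong to the 40S subunit, 48 to the 60S subunit and 3 (Rplp0, Rplp1 and Rplp2) to the P stalk, the arm of the 60S subunit that recruits translation factors. Of the 82, 79 are annotated as protein-coding, Rps4l as a transcribed processed pseudogene, and Rpl32l and Rpl6l as processed pseudogenes. The pseudogenes whose symbols carry "-ps" were not matched, nor were ribosomal protein genes named otherwise, such as Fau and Rack1.

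The study used SLAM-seq, in which newly made RNA takes up 4-thiouridine (4sU), and after alkylation each labelled uridine can be read as a T-to-C conversion. Wild-type cortices were taken at E11.5, at E14.5 or at E16.5, and the primary cells were plated in a progenitor medium with bFGF, so that every group was cultured and labelled, and no tissue was measured directly. Each stage had 3 replicates, lettered A to C. A replicate pooled 7 embryos at E11.5 and 2 embryos at the later stages, and its cells were spread over 5 wells. All wells received 100 uM 4sU for 20 h and then 5 mM uridine, and were lysed 0, 2, 4, 8 or 12 h later, which gave 45 libraries. Because the wells of a replicate share their pool of embryos, n = 3 replicates per stage throughout. The libraries held between 15938793 and 43893597 reads in genes (median 32988625).

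Ribosomal protein genes are known for short, heavily transcribed mRNAs whose production is matched among the subunits, since each ribosome needs a single copy of most of the proteins. Their mRNAs usually begin with a C followed by a run of pyrimidines, the terminal oligopyrimidine (TOP) motif, through which growth signalling acts on their translation, and similar starts are found on mRNAs of elongation factors. Ribosomal protein mRNAs are also the source of many retrocopies: processed pseudogenes that repeat the spliced sequence elsewhere in the genome. In the cortex, progenitors divide and grow while the neurons they produce do not divide.

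The annotated starts were read first, because the TOP motif sits there. The RefSeq promoter table for GRCm38.p6 had entries for 60 of the 82 members. Searched on the transcribed strand, a C at the annotated start base followed by at least 4 further C or T was found in 14 of these 60 genes (23.3%), against 3.01% of all 27025 genes in the table. Within 10 bases on either side of an annotated start, such a run was found in 39 of 60 members (65.0%) and in 34.4% of all genes. The windows of 9 members follow, since these genes return below for their levels or half-lives. They are the windows of Rpl15 (chr14:18270972-18271001, minus strand), Rps15a (chr7:118116133-118116162, minus strand), Rpl28 (chr7:4792950-4792979, plus strand), Rplp2 (chr7:141447636-141447665, plus strand), Rps9 (chr7:3704026-3704055, plus strand), Rpl10a (chr17:28328456-28328485, plus strand), Rps4x (chrX:102189377-102189406, minus strand), Rplp0 (chr5:115559452-115559481, plus strand) and Rps15 (chr10:80292416-80292445, plus strand). Each shows 15 bases before and 15 from the annotated start on, with the first C-led pyrimidine run found in the search in capitals.
Rpl15: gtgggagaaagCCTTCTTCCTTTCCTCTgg
Rps15a: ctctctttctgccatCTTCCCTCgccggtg
Rpl28: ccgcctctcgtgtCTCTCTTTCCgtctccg
Rplp2: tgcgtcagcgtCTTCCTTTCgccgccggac
Rps9: accgccttgtCTCTCTTTgtctcgggcctg
Rpl10a: gtggcgCCCCCCCagcggccgcaaactgca
Rps4x: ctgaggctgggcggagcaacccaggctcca
Rplp0: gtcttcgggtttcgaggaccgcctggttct
Rps15: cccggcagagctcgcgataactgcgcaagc
In Rpl15, Rpl28, Rplp2 and Rps9 the run begins before the annotated start and crosses it, in Rps15a it begins at the start base, and in Rpl10a it is a run of C that ends upstream. Rpl10a has a second annotated start (chr17:28328550-28328579), whose window holds no run within the searched bases. The windows of Rps4x, Rplp0 and Rps15 hold no run within the searched bases. These are descriptions of letters at annotated starts, which were not measured in these libraries.

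Most members share sequence with other loci, which bears on every level given here. Cutting each member's main annotated mRNA into 50-base pieces, a median of 62.4% of the pieces also occurred outside the gene, against 0.101% for mitochondrial ribosomal protein mRNAs, 31.0% for 18 other TOP mRNAs and 0.0847% for ribosome biogenesis factors. In all, 2923 annotated genes held a piece of a member, 230 of them named as "-ps" genes. Among the mRNAs most shared with other loci were those of Rps27 (99.7% of pieces) and Rpl36 (98.5%). A piece is called an own piece where it lies unbroken in the gene's genomic sequence and at no other locus. Pieces that cross a splice junction are thus not own pieces. How the authors assigned reads that fit several loci is not given in the sources used here, so the level of a member may miss reads or hold reads of its copies. In addition, 46 of the 82 members overlap another annotated gene, 33 on the same strand, mostly snoRNAs hosted in introns, and 22 on the opposite strand. The library kit keeps the strand, but whether counting used it is not stated.

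At 0 h of chase the members spanned from over 1000 cpm (reads scaled to library depth by the authors) to no read. Their median was 16.4 cpm, against 0.651 cpm for the 30767 genes with at least 1 read at 0 h. Per kilobase of mRNA, the scale on which genes can be compared, the highest was Rpl8, a 60S protein near the peptidyl transferase centre, with a mean over stages of 1071 cpm per kb. Also among the highest were the stalk protein Rplp1 (842 cpm per kb), the 40S protein Rps15 (766 cpm per kb) and Rplp0, the stalk's base (522 cpm per kb). The level was concentrated in few genes: the 10 highest by cpm carried 64.7% of the members' summed cpm, and 21 members exceeded 100 cpm.

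**Figure D1:**
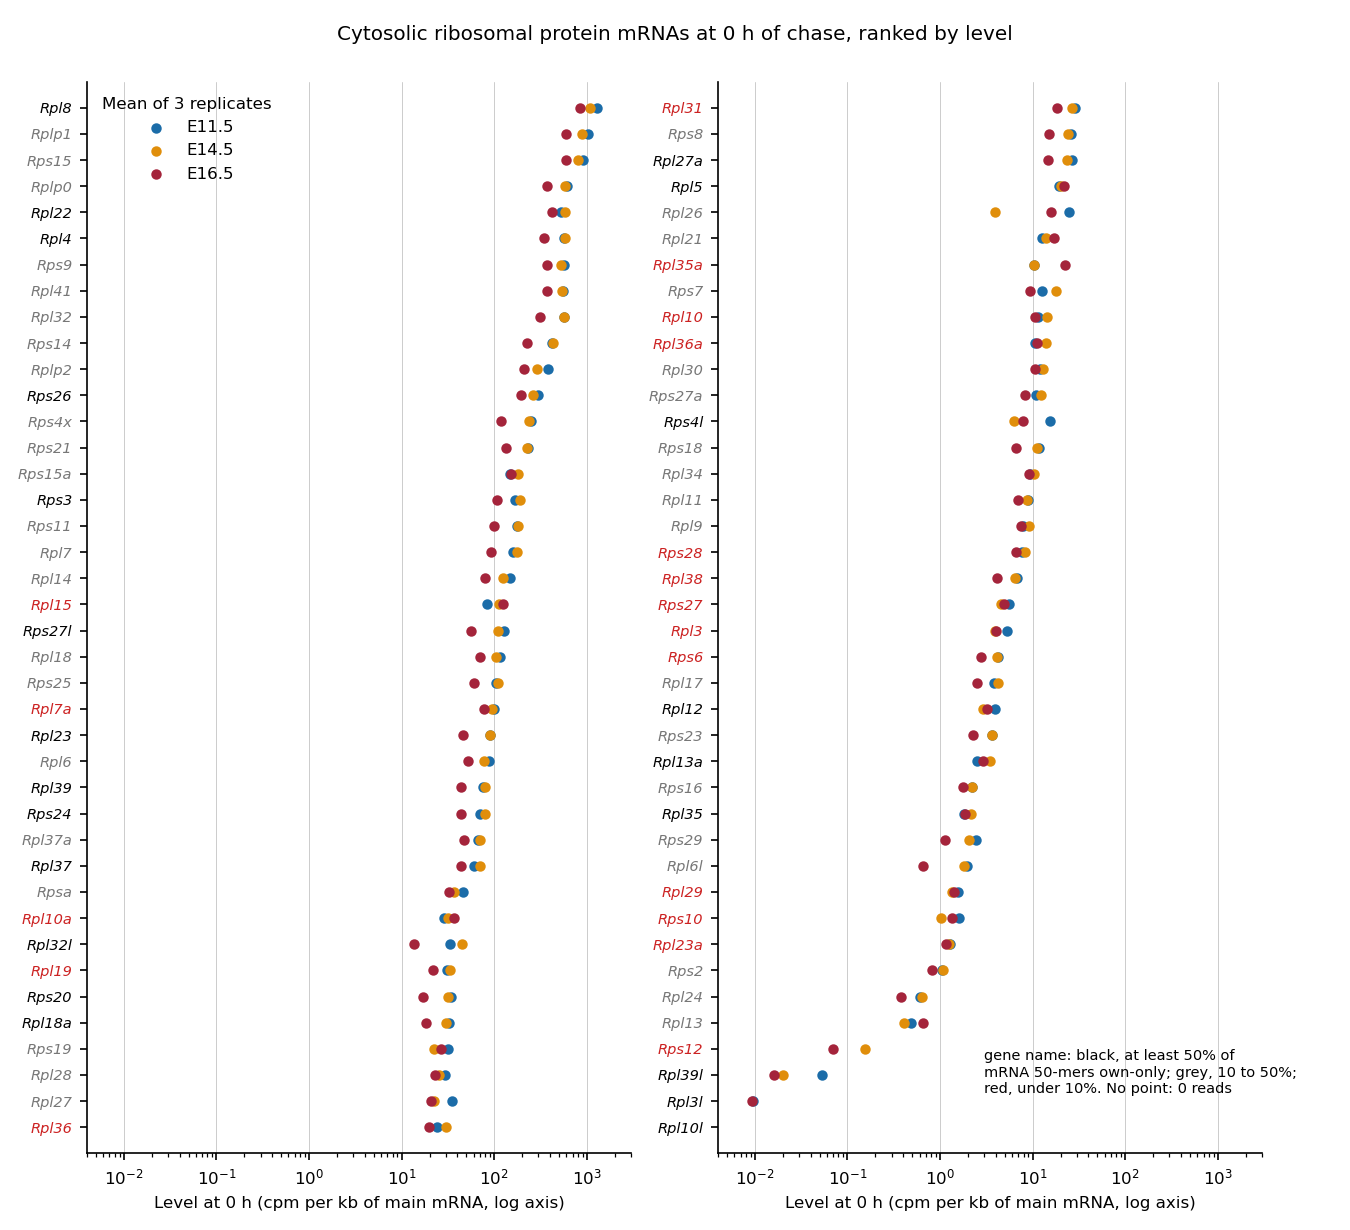
Level at 0 h of the members shown, in cpm per kb of its main mRNA on a log axis, ranked over both panels. Points give the mean of 3 replicates at each stage. Names are black, grey or red where at least 50%, 10% to 50% or under 10% of pieces are own pieces. Rpl8 (1071 cpm per kb over the stages) stands at the top, and the members under 1 cpm stand at the lower end of the second panel.

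At the other end, 10 members were under 1 cpm at every stage. They were Rps29, Rpl29, Rps10, Rpl23a, Rpl24, Rpl13 and Rps12, of the general set, and Rpl39l, Rpl3l and Rpl10l, copies of Rpl39, Rpl3 and Rpl10 known from testis or muscle. Rps12 had 12 reads in the 9 libraries of 0 h, Rpl39l had 4, Rpl3l had 2 and Rpl10l had 0. The last count, over these 9 libraries together, allows up to 0.0112 cpm of the reads in genes, for counting error only. Of the general set under 1 cpm, between 76.0% (Rps29) and 94.5% (Rpl23a) of the mRNA's pieces occur at other loci.

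Reads of the same family were found at the "-ps" genes. Of 60 members with a "-ps" gene of their name, 22 had fewer cpm at E11.5 than their "-ps" genes together. Rps10, of the 40S head, had 0.793 cpm at its own gene and 159 cpm at its "-ps" genes. For Rpl3, a core 60S protein, the values were 7.22 and 173 cpm, for Rps16 2.43 and 124 cpm, and for Rpl9 5.35 and 126 cpm. Rpl14 had 149 cpm at its own gene and 375 cpm at its "-ps" gene, and Rpl10a had 20.9 and 239 cpm. The order was the opposite for Rpl15 (66.3 and 1.36 cpm), Rps4x (242 and 12.8 cpm) and Rpl5 (38.9 and 4.10 cpm). The 19 members with under 10% own pieces had a median of 5.74 cpm. The 40 members between 10% and 50% had a median of 19.4 cpm, and the 23 members with at least 50% a median of 41.4 cpm. Across the 79 protein-coding members, which are not independent of each other, Spearman's rho between this share and the cpm per kb was 0.26. Levels of single members are therefore given as levels of the annotated locus.

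Between stages, the members' share of all reads in genes was alike at E11.5 and E14.5 and lower at E16.5. At 0 h it was 0.993% ± 0.0616 (SD) at E11.5, with replicates from 0.954% to 1.06%, and 0.948% ± 0.0251 at E14.5, with replicates from 0.919% to 0.964%. At E16.5 it was 0.635% ± 0.0121, with replicates from 0.624% to 0.648%. The ranges of E11.5 and E14.5 overlapped, and every E16.5 replicate lay below all replicates of both earlier stages. The E16.5 mean was 0.670 times that of E14.5 and 0.640 times that of E11.5. The "-ps" genes took 0.299%, 0.279% and 0.175% of reads at the 3 stages, so adding them does not turn the order. In these bulk samples, fewer cells of a type and less RNA per cell cannot be told apart.

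Cell type markers moved with the stages as well. The summed level of 10 radial glia markers ran from 10455 to 10896 cpm over the E11.5 replicates, from 4259 to 4975 cpm at E14.5 and from 1751 to 1936 cpm at E16.5, and that of 10 neuron markers from 3102 to 3699, from 6232 to 7021 and from 9034 to 9503 cpm. The cultures thus carried markers of both radial glia and neurons at each stage. Other cell types were most visible at E11.5, where 9 erythroid markers summed to 1774 to 3830 cpm against 87.7 to 208 cpm at the later stages, and 7 meningeal and mural markers to 465 to 704 cpm against 15.3 to 33.3 cpm. Sums of 7 microglia markers (7.60 to 14.7 cpm) and 6 endothelial markers (1.06 to 5.79 cpm) were low at all stages. No marker of any list was at 0 in all libraries of a stage. The part of these cell types in the changes between stages was not tested.

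**Figure D2:**
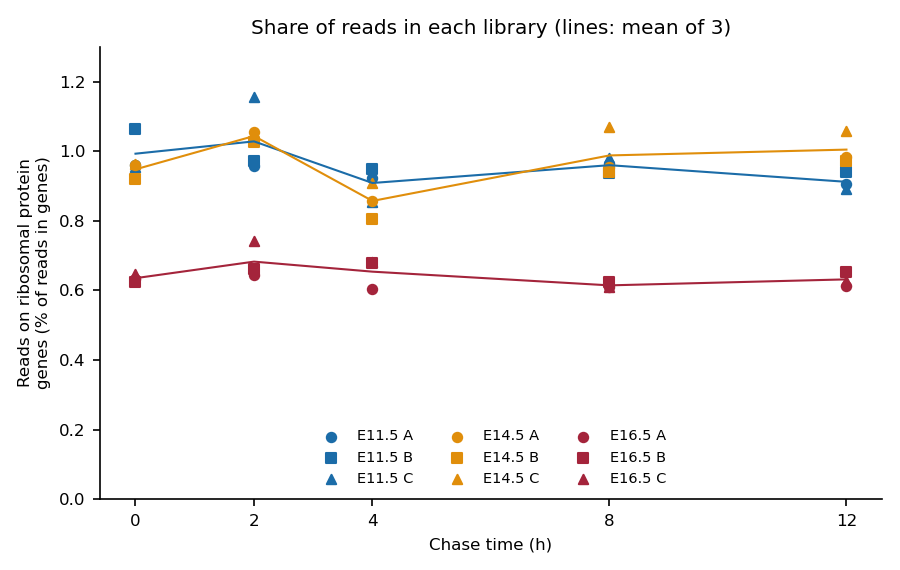
Reads on the 82 ribosomal protein genes as a percentage of all reads in genes, for each of the 45 libraries by chase time in hours, coloured by stage and marked by replicate, with lines through the means of 3. The 9 points of 0 h show E16.5 at 0.624% to 0.648%, under all points of the other stages, and E16.5 stays lowest at each later chase time.

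Gene by gene, 78 members had more than 10 covered T positions in every library of the 0 h test and were tested by edgeR's quasi-likelihood test, with p adjusted over all 18408 genes tested. Rps12, Rpl39l, Rpl3l and Rpl10l were not. From E11.5 to E14.5, 9 members rose and 6 fell, 15 of 78 together, while 48.6% of all genes were called (25.1% higher, 23.5% lower). The members' median change was 0.02 on the log2 scale, beside -0.01 for all genes tested.

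The clearest rise in this interval was that of Rpl15, a 60S protein, which stood at 60.2, 65.4 and 73.2 cpm in E11.5 replicates A, B and C and at 90.1, 81.9 and 101 cpm at E14.5. The groups did not overlap, and the log2 change was 0.52 ± 0.09 (SE, adjusted p = 0.000245). The gene (chr14:18267823-18271391, minus strand) overlaps Nkiras1 on the opposite strand. Rps15a, a 40S protein, was at 89.0, 99.5 and 98.0 cpm and then at 119, 108 and 123 cpm, a log2 change of 0.34 ± 0.07 (adjusted p = 0.000985), again with no overlap. Members of lower level also rose: Rps7 by 0.44 ± 0.13 (adjusted p = 0.0144), Rpl36a by 0.40 ± 0.12 (adjusted p = 0.0174) and Rpl36 by 0.44 ± 0.17 (adjusted p = 0.0477). These last calls were weak, since Rpl36 was no longer called without any of 7 of the 9 libraries (adjusted p = 0.0597 to 0.128 for those of E11.5 and E14.5), Rpl36a without E11.5 replicate C (adjusted p = 0.0606) or E14.5 replicate B (adjusted p = 0.0537), and Rps7 without E11.5 replicate C (adjusted p = 0.0562). With the reads of their "-ps" genes added, the change of Rpl36a was -0.04 and that of Rpl36 was 0.14 (adjusted p = 0.322). With the replicate letter as a block, which joins pools of different embryos between stages, Rpl36 had an adjusted p of 0.0639.

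Among the falls to E14.5, Rpl26, a 60S protein at the exit of the peptide tunnel, had the largest log2 change, -2.69 ± 0.69 (adjusted p = 0.00603), but its replicates scattered widely. It was at 6.18, 8.61 and 24.1 cpm at E11.5, at 2.34, 2.31 and 1.56 cpm at E14.5, and at 11.2, 1.23 and 12.3 cpm at E16.5, where E16.5 replicate B stood with the E14.5 libraries. Rps4l, the retrocopy of Rps4x, was at 11.4, 12.5 and 12.5 cpm and then at 4.39, 5.97 and 4.67 cpm, a fall by 1.24 ± 0.15 on the log2 scale (adjusted p = 2.3e-05). Rpl27 fell by 0.54 ± 0.11 (adjusted p = 0.00169). The stalk protein Rplp2 fell by 0.35 ± 0.10 (adjusted p = 0.00939), and Rpsa, the laminin receptor precursor of the 40S subunit, by 0.27 ± 0.09 (adjusted p = 0.0211). The call for Rpsa was lost without E11.5 replicate B (adjusted p = 0.0634) or E14.5 replicate C (adjusted p = 0.0584). Between the 12 h libraries of the same stages the changes of Rpl27 (-0.22, adjusted p = 0.195), Rplp2 (-0.28, adjusted p = 0.0667) and Rpsa (-0.18, adjusted p = 0.158) were not called.

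Between E14.5 and E16.5 the members moved down together. Of 78 tested, 47 fell and 1 rose, while 49.5% of all genes tested were called and 25.4% fell, with 24.1% higher. The members' median log2 change was -0.53, beside -0.00 for all genes. By subunit, 19 of 30 tested 40S members fell (median -0.55), 25 of 45 60S members fell and 1 rose (median -0.40), and all 3 stalk mRNAs fell (median -0.56). The fall was modest in size: 3 members fell by more than 2-fold. Of the 20 tested members with at least 50% own pieces, a choice added after seeing the data, 15 fell and none rose (median -0.62).

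Rpl8, the member with the highest level, was among those that fell. It was at 1065, 1239 and 970 cpm at E11.5, at 948, 928 and 913 cpm at E14.5, and at 732, 686 and 717 cpm at E16.5. Every E16.5 value lay under all values of the earlier stages. Between E14.5 and E16.5 the log2 change of Rpl8 was -0.36 ± 0.08 (adjusted p = 0.00151).

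The stalk behaved alike. Rplp0 was at 792, 872 and 833 cpm at E11.5, at 755, 755 and 839 cpm at E14.5, and at 494, 518 and 516 cpm at E16.5, and Rplp1, which dimerises with Rplp2 on it, at 496, 572 and 483, at 465, 431 and 439, and at 306, 267 and 322 cpm. Their E16.5 replicates again lay below all others. Between E14.5 and E16.5, Rplp0 fell by 0.59 ± 0.06 (adjusted p = 4.81e-06), Rplp1 by 0.56 ± 0.09 (adjusted p = 0.000222) and Rplp2 by 0.42 ± 0.10 (adjusted p = 0.00316).

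The largest falls among called members with separate replicates were those of Rpl32l, Rpl6l, Rpl17, Rps4x and Rpl23. Rps4x, the X-linked protein of the 40S subunit, was at 228, 209 and 253 cpm at E14.5 and at 112, 122 and 111 cpm at E16.5, a log2 change of -0.99 ± 0.07 (adjusted p = 4.25e-07). Rpl23, a 60S protein also known for binding Mdm2, was at 90.4, 88.4 and 108 cpm and then at 48.7, 47.4 and 51.8 cpm, a change of -0.92 ± 0.08 (adjusted p = 8.94e-07). The remaining ones were low. Rpl32l, a processed pseudogene that lies within Map7 on the same strand, was at 17.6, 21.0 and 15.7 cpm and then at 4.64, 4.34 and 7.45 cpm (-1.69 ± 0.22, adjusted p = 4.14e-05). Rpl17 went from 2.65, 2.74 and 4.48 cpm to 1.86, 2.09 and 1.92 cpm (-1.02 ± 0.23, adjusted p = 0.00254) and the pseudogene Rpl6l from 1.42, 1.68 and 1.69 cpm to 0.913, 0.427 and 0.374 cpm (-1.36 ± 0.39, adjusted p = 0.0116). Between the 12 h libraries the change of Rpl6l was -0.84 (adjusted p = 0.0615). The single rise was that of Rpl26 (2.12 ± 0.68, adjusted p = 0.0203), whose replicates overlapped.

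**Figure D3:**
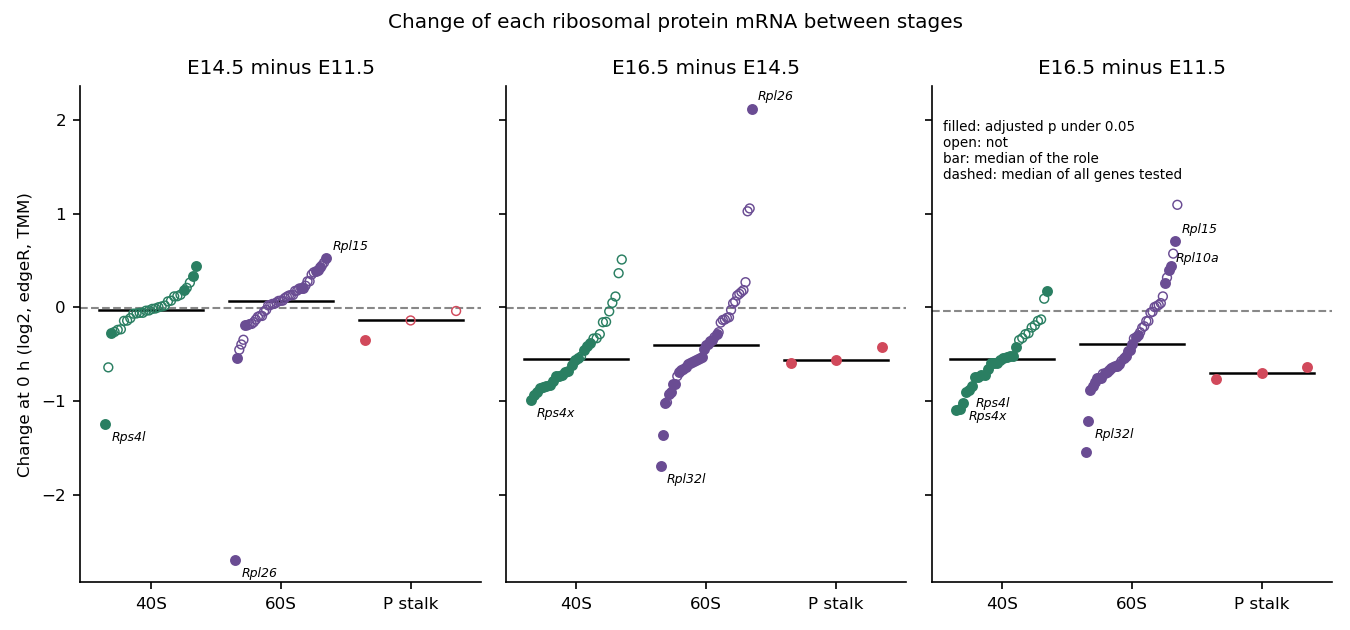
Log2 change at 0 h of each tested member in the 3 stage comparisons, by subunit. Filled points passed the edgeR test and open points did not, black lines give the subunit medians and the dashed line the median of all genes. The medians lie near 0 from E11.5 to E14.5 and between -0.69 and -0.39 in both comparisons of E16.5.

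Over the whole interval, E16.5 against E11.5, 45 of 78 members fell and 5 rose, 50 together, while 64.4% of all genes were called, 33.1% lower and 31.4% higher. The members' median was -0.53, beside -0.04. The count called was thus near the share over all genes, and the members differed from it in direction. In the 40S subunit 20 of 30 fell and 1 rose, in the 60S subunit 22 of 45 fell and 4 rose, and 3 of 3 stalk mRNAs fell. Rps27l, a p53-responsive paralog of Rps27, was at 57.7, 64.7 and 70.1 cpm at E11.5, at 62.7, 55.3 and 44.5 cpm at E14.5 and at 26.4, 28.6 and 28.7 cpm at E16.5 (-1.09 ± 0.13 over the interval, adjusted p = 5.42e-06). Rps4x fell by 1.02 ± 0.07 (adjusted p = 6.17e-08), Rpl32l by 1.21 ± 0.22 (adjusted p = 0.000305) and Rpl6l by 1.53 ± 0.39 (adjusted p = 0.00406). Rps29, at under 1.1 cpm in all replicates, fell by 1.08 ± 0.33 (adjusted p = 0.0117), a call lost without E16.5 replicate A (adjusted p = 0.0513). Between the 12 h libraries neither Rpl6l (-0.16, adjusted p = 0.71) nor Rps29 (-0.48, adjusted p = 0.307) was called.

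The 5 members that rose against this direction were all but Rps15a of the 60S subunit. Rpl15 reached 99.2, 100 and 103 cpm at E16.5, and its change from E11.5 was 0.71 ± 0.09 (adjusted p = 9.36e-06). Rpl21 was at 11.9, 11.8 and 10.5 cpm at E11.5 and at 17.1, 12.7 and 15.8 cpm at E16.5 (0.45 ± 0.11, adjusted p = 0.00328). Rpl5, which with Rpl11 carries 5S RNA into the ribosome, was at 38.5, 36.6 and 41.6 cpm and then at 43.7, 45.1 and 43.7 cpm (0.26 ± 0.10, adjusted p = 0.0376). That small rise was not called without E11.5 replicate A or B or E16.5 replicate B or C (adjusted p = 0.067 to 0.119), and between the 12 h libraries Rpl5 was lower at E16.5 (-0.16, adjusted p = 0.035). With "-ps" reads added its change at 0 h was 0.20 (adjusted p = 0.0693). Rps15a rose by 0.18 with overlapping replicates. Its own gene was at a mean of 95.5 cpm at E11.5 and 97.4 cpm at E16.5, whereas its "-ps" genes together went from 135 to 77.7 cpm. Rpl10a was at 23.5, 18.4 and 20.7 cpm and then at 30.1, 24.7 and 26.1 cpm (0.40 ± 0.11, adjusted p = 0.00673), but with the reads of its "-ps" genes added its change was -0.51 (adjusted p = 0.000134), and between the 12 h libraries it was 0.34 (adjusted p = 0.117).

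Related gene lists moved as follows between E14.5 and E16.5. All 18 of the other TOP mRNAs, translation factors and their partners, fell, with a median of -0.53. Of 76 mitochondrial ribosomal protein mRNAs, whose products serve a separate ribosome, 40 fell and 2 rose (median -0.23), and of 31 ribosome biogenesis factors 19 fell and 2 rose (median -0.29). Of 6 tested ribosomal protein genes that the rule does not match, 4 fell (median -0.70), and of 155 tested "-ps" genes 53 fell and none rose (median -0.57).

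Along the chase a smaller share of members than of all genes was called as changed in level. Comparing 12 h with 0 h by edgeR within a stage, 1 of 77 tested members rose and 4 fell at E11.5, where 23.0% of all genes were called (13.2% higher, 9.83% lower). At E14.5, 1 rose and 4 fell of 77, beside 15% of all genes (7.64% higher, 7.41% lower), and at E16.5, 2 rose and 6 fell of 78, beside 26.2% (14.2% higher, 12.0% lower). The members' median change was -0.07, 0.07 and 0.01 at the 3 stages. The fits above left out that wells of 1 pool were split over the chase. With the pool held as a replicate block, 14 of 77, 17 of 77 and 21 of 78 members were called, beside 32.4%, 27.7% and 37.0% of all genes in the same fits. The single changes given next are from the fits without the block. All of those named by the rule kept their call with it. The members' share of reads over all 45 libraries ran from 0.603% to 1.16%.

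Rpl5 was the member that rose along the chase at both early stages. At E11.5 its mean was 38.9 cpm at 0 h, 43.7 at 2 h, 48.9 at 4 h, 56.6 at 8 h and 50.4 at 12 h, and its log2 change was 0.57 ± 0.07 (adjusted p = 4.88e-05). All 12 h replicates (49.8, 53.1 and 48.2 cpm) lay above all 0 h replicates. At E14.5 its replicates were at 46.3, 34.5 and 42.8 cpm at 0 h and at 53.3, 51.7 and 55.6 cpm at 12 h (0.39 ± 0.11, adjusted p = 0.0273), a call lost without replicate A (adjusted p = 0.0911), B (adjusted p = 0.103) or C (adjusted p = 0.124). From 0 h to 12 h of E11.5 the members' mean share of reads in genes went from 0.993% to 0.912%, but their mean summed cpm from 9085 to 7854. The cpm of 12 h at E11.5 are thus scaled lower and do not match the log2 changes, which use TMM. Separate cpm replicates are weaker ground for a fall there.

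Rpl9, a 60S protein near the stalk, went the other way at the later stages. At E14.5 it was at 6.09, 5.28 and 7.17 cpm at 0 h and at 3.26, 3.68 and 3.88 cpm at 12 h (-0.79 ± 0.13, adjusted p = 0.00105), and at E16.5 at 4.79, 5.36 and 5.29 cpm and then at 3.17, 2.39 and 2.81 cpm (-0.84 ± 0.12, adjusted p = 0.000153). Rpl10a fell by 0.69 ± 0.20 at E14.5 (adjusted p = 0.0264) and by 0.60 ± 0.19 at E16.5 (adjusted p = 0.0284). Both genes have most of their family's reads at "-ps" genes, and with these reads added the changes were 0.05 and 0.03 for Rpl9 and 0.01 and 0.02 for Rpl10a. The E14.5 call for Rpl9 was also lost without replicate A (adjusted p = 0.0527).

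Most of the other calls were falls. At E11.5, Rps6, the S6 kinase substrate, fell by 0.93 ± 0.21 (adjusted p = 0.00518), Rpl30 by 0.45 ± 0.13 (adjusted p = 0.018), Rps4l by 0.44 ± 0.13 (adjusted p = 0.0183) and Rpl21 by 0.30 ± 0.11 (adjusted p = 0.0474). At E14.5, Rpl12 fell by 0.65 ± 0.18 (adjusted p = 0.0221) and Rps27a, made as a fusion with ubiquitin, by 0.56 ± 0.13 (adjusted p = 0.00838). At E16.5, Rpl13a fell by 0.72 ± 0.19 (adjusted p = 0.0113), Rps4l by 0.68 ± 0.19 (adjusted p = 0.0126), Rpl34 by 0.57 ± 0.13 (adjusted p = 0.00424) and Rps15a by 0.26 ± 0.05 (adjusted p = 0.00059), while Rps21 rose by 0.28 ± 0.08 (adjusted p = 0.0143) and Rpl38 by 0.72 ± 0.25 (adjusted p = 0.0472), the latter with overlapping replicates. Rps15a and Rpl38 were named after their values were seen. With the reads of their "-ps" genes added, the falls of Rps6 (-0.20, adjusted p = 0.102) and Rpl21 (-0.27, adjusted p = 0.0575) at E11.5, of Rps27a at E14.5 (-0.08, adjusted p = 0.816) and of Rpl13a at E16.5 (-0.07, adjusted p = 0.672) were not called. Of the 16 chase changes described by the rule for named genes, 14 lost their call without at least 1 of the 3 replicates, the exceptions being Rpl5 at E11.5 and Rpl9 at E16.5. Without replicate A the 4 falls of E11.5 (adjusted p = 0.0521 to 0.15), those of Rpl10a, Rpl12 and Rps27a at E14.5 (0.0762 to 0.204) and those of Rpl10a, Rpl13a and Rps4l at E16.5 (0.0522 to 0.0949) were lost. Without replicate B the falls of E11.5 (0.0976 to 0.27), those of Rpl10a and Rpl12 at E14.5 (0.211 and 0.292) and the changes of Rpl10a, Rps4l, Rpl34 and Rps21 at E16.5 (0.069 to 0.16) were lost.

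The difference in the 12 h change between stages was tested directly. It passed for 0 of 78 members by edgeR, beside 7.55% of all genes, with 5 members at an unadjusted p under 0.05, and DESeq2 called 1. With the pool as a replicate block 3 of 78 members were called, beside 18.2% of all genes.

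The label gave a second view, since a gene's conversion rate falls as labelled RNA is replaced. At 0 h the median member had a conversion rate of 1.03%, 0.939% and 1.48% of covered Ts in E11.5 replicates A, B and C, of 1.04%, 1.10% and 0.954% at E14.5, and of 1.62%, 1.69% and 1.68% at E16.5. E16.5 cells thus held more label in every replicate, and so did all genes, whose medians were 1.02% to 1.45%, 1.05% to 1.22% and 1.79% to 1.89%. Relative to all genes with over 500 covered Ts, the members' median was 0.936, 0.919 and 1.02 at E11.5, 0.921, 0.905 and 0.911 at E14.5, and 0.906, 0.895 and 0.897 at E16.5. In 8 of 9 replicates the members therefore started the chase slightly under the median gene, and E11.5 replicate C was the exception.

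The label then left the members more slowly than other mRNAs. At E11.5 the median member kept on average 93.3% of its 0 h rate at 2 h, 77.9% at 4 h, 58.8% at 8 h and 42.0% at 12 h, while the median gene kept 84.1%, 46.9%, 24.3% and 20.6%. At E14.5 the members kept 97.7%, 80.5%, 61.8% and 44.9%, against 89.3%, 47.4%, 25.0% and 21.4%. At E16.5 they kept 94.0%, 76.7%, 43.2% and 25.2%, against 79.1%, 39.6%, 15.2% and 11.6%. The members stood above the median gene at each time and stage, and the late times were lower at E16.5 for both.

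**Figure D4:**
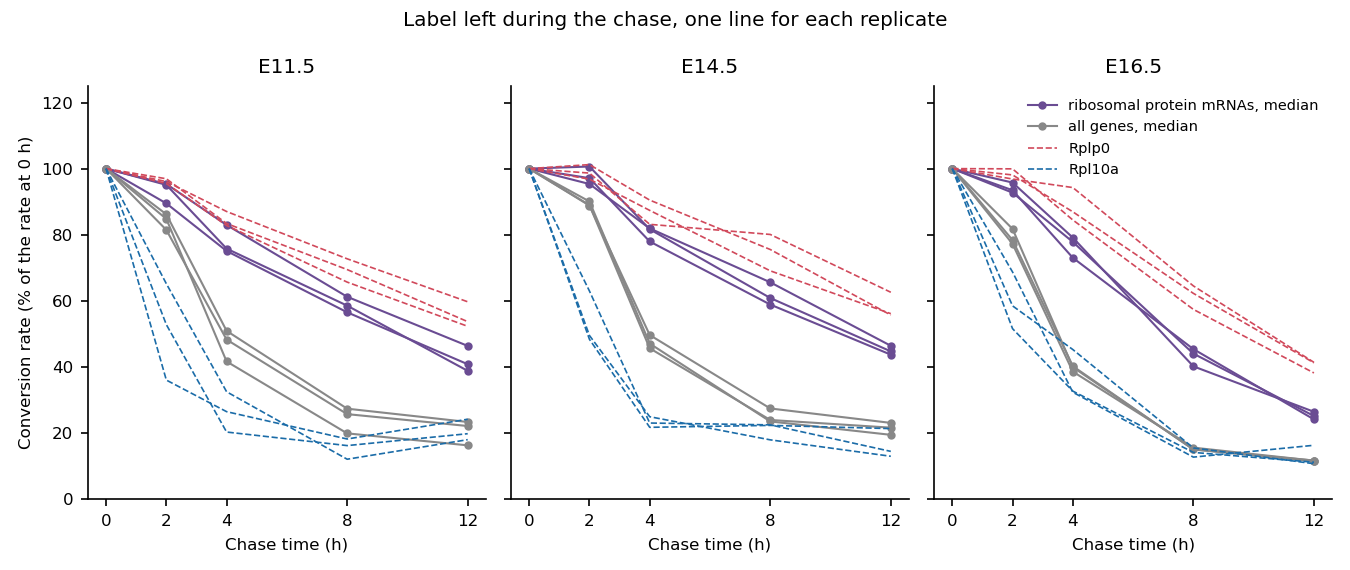
Conversion rate as a percentage of the rate at 0 h against chase time in hours, a line for each replicate, for the median member, the median of all genes, and for Rplp0 and Rpl10a (dashed). The members' lines lie above those of all genes from 2 h on, at 42.0% against 20.6% on average at 12 h of E11.5, and of the 2 genes shown Rpl10a lies under the members and Rplp0 near or above them.

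Half-lives were fitted from these rates for genes with over 500 covered Ts at all chase times in all 3 replicates of a stage, which 64 members met at E11.5 and E14.5 and 62 at E16.5. The median member had a half-life of 9.44, 12.3 and 9.98 h in E11.5 replicates A, B and C, of 10.6, 11.3 and 12.1 h for E14.5, and of 7.08, 7.44 and 7.54 h for E16.5. The means were 10.6 h ± 1.55 (SD), 11.3 h ± 0.734 and 7.35 h ± 0.243, beside medians of all genes of 4.56 h ± 0.497, 4.78 h ± 0.222 and 3.56 h ± 0.073. The members' median was thus 2.33 times that of all genes at E11.5 (2.04 to 2.48 over replicates), 2.37 times at E14.5 (2.27 to 2.43) and 2.06 times at E16.5 (2.03 to 2.09). Among the 10.0% of genes with the longest half-lives at each stage were 47 of 64, 47 of 64 and 41 of 62 members, and above the median of all genes were 60 of 64, 60 of 64 and 60 of 62.

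Other parts of the protein-making machinery differed in this. The medians of mitochondrial ribosomal protein mRNAs were 4.78, 5.10 and 3.78 h at the 3 stages, 1.05 to 1.07 times the median gene. Ribosome biogenesis factors had medians of 4.43, 4.58 and 3.42 h, at 0.957 to 0.974 times the median gene, and the other TOP mRNAs lay between, at 8.67, 8.76 and 5.97 h. The "-ps" genes of ribosomal proteins had medians between 9.14 and 15.2 h, and the 5 measured ribosomal protein genes that the rule misses had 9.85, 9.10 and 6.80 h. Members with at least 50% own pieces, a choice added after seeing the data, had medians of 10.3, 10.9 and 6.75 h.

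Within the ribosome the subunits were not alike. The 24 measured 40S members had medians of 12.4, 12.3 and 8.31 h, and the 60S members 8.94, 10.5 and 6.50 h (37, 37 and 35 measured). In each of the 9 replicates the 40S median was longer, and since members are not replicates no test is given. The stalk mRNAs were the longest, with a median of 18.7, 20.4 and 12.4 h over the 3 genes.

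**Figure D5:**
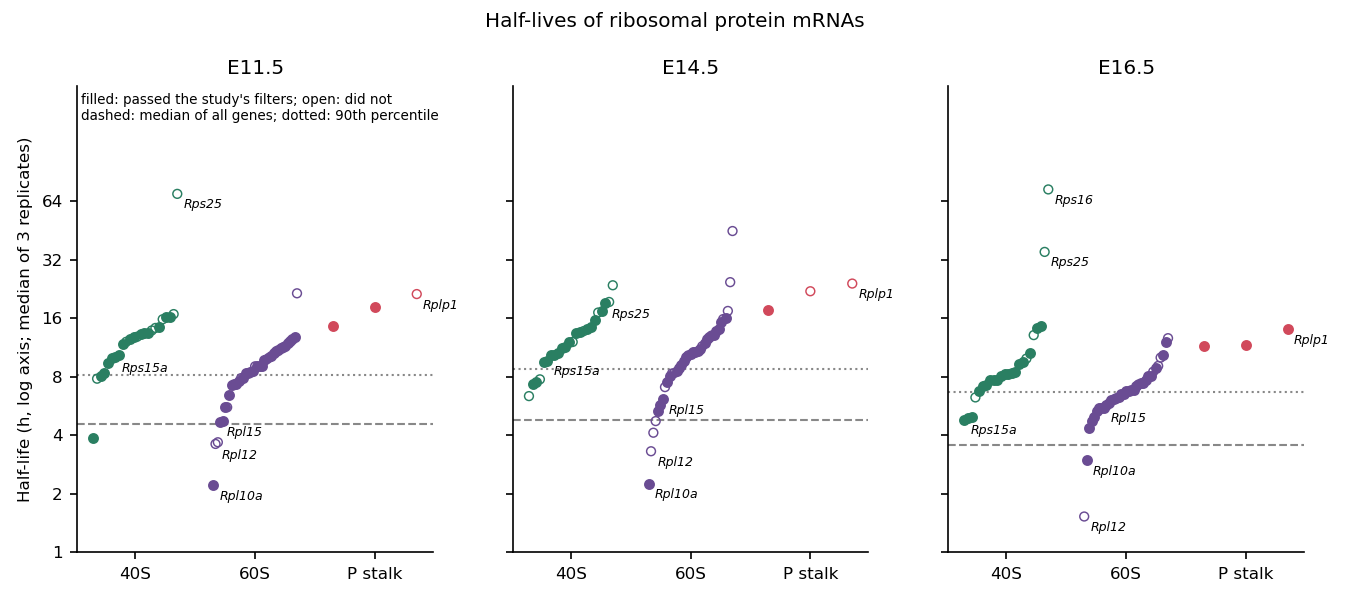
Half-life in hours on a log axis of each measured member by subunit and stage, as the median of 3 replicates, with filled points for members that passed the study's filters, a dashed line for the median of all genes and a dotted line for the limit of the longest 10.0% (8.20, 8.80 and 6.67 h). Most points lie above that limit, and Rpl10a lies lowest in the 60S column for E11.5 and E14.5 and above Rpl12 alone for E16.5.

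The study kept half-lives under 24 h with an R2 over 0.6 in all 3 replicates. Of the members, 47 of 64, 42 of 64 and 51 of 62 passed (73.4%, 65.6% and 82.3%), against 85.7%, 84.9% and 93.1% of all measured genes. A half-life of 24 h or more in at least 1 replicate was found for 11, 9 and 3 members, and an R2 of 0.6 or less in at least 1 replicate for 15, 16 and 10. The filter thus removes members at the long end and members whose decay the curve describes less well. Rplp1, for example, had 21.3, 25.5 and 16.3 h for E11.5, 19.4, 24.1 and 26.6 h for E14.5, and 13.2, 14.04 and 14.3 h for E16.5. Rps21, a small 40S protein, had 15.8, 25.8 and 16.8 h, 23.6, 22.8 and 33.9 h, and 20.5, 14.2 and 11.7 h. Both were named after their values were seen. Estimates beyond the 12 h of chase rest on the fitted curve.

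Passing in all 9 replicates were 35 members, and among the longest of these were Rplp0, Rps4x, Rps15 and Rps9. Rplp0 had 14.6, 17.2 and 13.5 h for E11.5, 15.5, 17.5 and 19.8 h for E14.5, and 10.5, 11.6 and 12.5 h for E16.5. Rps4x had 16.2, 18.9 and 14.2 h, 14.2, 17.5 and 18.6 h, and 9.42, 10.7 and 10.6 h. In both genes the early stages overlap and every E16.5 replicate is shorter. Rps15 had 13.3, 16.3 and 12.8 h, 14.03, 12.2 and 17.7 h, and 8.46, 8.92 and 7.86 h, and Rps9, of the 40S body, 13.4, 13.8 and 11.4 h, 13.2, 13.6 and 17.0 h, and 8.89, 9.70 and 9.51 h. Of these 4, the windows printed above for Rplp0, Rps4x and Rps15 hold no pyrimidine run within the searched bases, and that of Rps9 holds a run that crosses the annotated start.

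The shortest of the 35 were all 60S proteins. Rpl10a, a protein of the L1 stalk, had 2.21, 1.91 and 2.90 h for E11.5, 2.72, 2.26 and 2.24 h for E14.5, and 2.47, 3.14 and 2.98 h for E16.5. Its conversion rate fell from a mean of 1.25% to 0.335% within 4 h for E11.5, while that of Rplp0 went from 1.06% to 0.888%. This placed Rpl10a at percentile 2.51, 2.69 and 34.5 of all genes at the 3 stages, the member at the other end from its family. Rpl28 had 5.09, 4.75 and 4.10 h, 4.71, 5.33 and 6.85 h, and 4.66, 4.38 and 3.54 h. Rpl10, which completes the 60S subunit in the cytoplasm, had 5.90, 4.27 and 5.57 h, 5.73, 7.17 and 5.22 h, and 4.94, 4.77 and 5.97 h. Rpl27 had 7.02, 5.82 and 6.43 h, 10.9, 10.8 and 4.11 h, and 5.47, 4.78 and 5.35 h, with E14.5 replicate C apart from the other replicates of its stage.

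The annotation behind the counts differs from the main mRNA in many members, short-lived and long-lived alike. The authors summed all annotated exons of a gene. The union of exons of Rpl10a (chr17:28328471-28331033, plus strand) spans 2431 bases, against 729 for its main mRNA. Of the pieces of this mRNA, 0.294% are own pieces and 92.8% also occur at other loci. The same lengths were 1840 and 772 bases for Rpl28, 2053 and 799 for Rpl10, 2473 and 802 for Rpl15, and 1535 and 614 for Rpl27. Among the long-lived members they were 2522 and 751 bases for Rps9, 1631 and 975 for Rps4x, 1659 and 1358 for Rplp0, 810 and 394 for Rps21, 630 and 500 for Rps15, and 499 and 499 for Rplp1. Rpl10a and Rpl28 also overlap a gene on the opposite strand (CT025652.2 and Ube2s). The part of annotated introns or of neighbouring genes in these half-lives was not tested.

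Half-lives were shorter at E16.5 for nearly all members, and for most other genes too. Over the 35 members, the median was 10.3 h ± 0.556 for E11.5, 11.0 h ± 0.681 for E14.5 and 6.77 h ± 0.253 for E16.5. The E16.5 median was 0.613 times that of E14.5, with 34 of 35 members shorter, and 0.660 times that of E11.5, with 33 of 35 shorter. Over all 9505 transcripts that passed, the ratios were 0.745 and 0.781, with 94.1% and 90.1% shorter.

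To compare stages beyond this common shift, half-lives were scaled within each replicate to z-scores, as the study did, and tested by limma over the 9505 transcripts. A change is then in SDs of all half-lives of a replicate. From E11.5 to E14.5 no member was called, where 0.200% of all transcripts were (0.0736% shorter), and 6 members had an unadjusted p under 0.05. Between E14.5 and E16.5, 2 members became shorter, beside 0.884% of transcripts called and 0.200% shorter, with a members' median of -0.93 against -0.02 for all. One of them was Rpl22 (-1.33 ± 0.22, adjusted p = 0.0453). Its call depended on single replicates: leaving out any replicate of E14.5 or E16.5 raised the adjusted p to between 0.104 and 0.123, and leaving out E11.5 replicate C to 0.0656. Rpl22 was not called on centred log2 half-lives (adjusted p = 0.0667) or with the background rate subtracted (adjusted p = 0.0685). With the letter as a block, which joins pools of different embryos between stages, its adjusted p was 0.0915. Without the common scaling, in hours, the share of members called was 68.6%, beside 38.1% of all transcripts.

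From E11.5 to E16.5, 8 of 35 members became shorter and 1 longer in relative half-life, where 4.70% of all transcripts were called and 1.71% became shorter. The members' median was -0.89, beside -0.01. Rpl22, a 60S protein that also binds RNA outside the ribosome, had 12.0, 15.5 and 10.8 h for E11.5, 10.3, 10.8 and 11.8 h for E14.5, and 5.97, 6.34 and 6.13 h for E16.5 (-2.59 ± 0.22, adjusted p = 0.00596). Rps15a went from 9.18, 10.6 and 10.1 h to 4.27, 4.82 and 5.23 h (-2.09 ± 0.39, adjusted p = 0.0271) and Rps14 from 14.47, 17.3 and 9.88 h to 6.60, 7.34 and 7.17 h (-2.56 ± 0.48, adjusted p = 0.0271). All 3 genes had separate replicates at the 2 stages.

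Rps4x (-2.09 ± 0.36, adjusted p = 0.0221), Rps15 (-1.99 ± 0.44, adjusted p = 0.0462), Rps3 (-1.51 ± 0.28, adjusted p = 0.0271) and Rpl4 (-0.89 ± 0.19, adjusted p = 0.0422) also became shorter, the last 2 of them named after their values were seen. The calls for Rps14, Rps15, Rps15a and Rps4x were each lost without any single replicate of E16.5 (adjusted p = 0.0631 to 0.142), and without E11.5 replicate B (adjusted p = 0.0544 to 0.107). The calls for Rps14 and Rps15 were also lost without E11.5 replicate A (adjusted p = 0.0706 and 0.0559), and that for Rps15 without E11.5 replicate C (adjusted p = 0.0952) or E14.5 replicate A (adjusted p = 0.0722). With the letter as a block, which joins pools of different embryos here, Rps15 (adjusted p = 0.0929) and Rps15a (adjusted p = 0.0514) were not called. On centred log2 half-lives Rps15 (adjusted p = 0.0924) and Rps4x (adjusted p = 0.0862) were not.

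The label left at 12 h, a measure of the decay at 1 time without background subtraction, did not show this relative shortening. Taken as the log2 of the 12 h rate over the 0 h rate and centred on the median gene, its members' median change to E16.5 was 0.10 from E14.5 and 0.09 from E11.5, over 59 members, where the z-scores gave -0.93 and -0.89 over 35 members. From E11.5 to E16.5 it gave 0.12 for Rps4x and 0.13 for Rps15, in the opposite direction, and did not call Rpl22 (-0.42, adjusted p = 0.175), Rps14 (-0.18, adjusted p = 0.614) or Rpl15 (0.70, adjusted p = 0.0729). Of the 6 changes named by the rule in this interval, Rps15a alone kept its call on this measure. From E14.5 to E16.5 it gave -0.14 for Rpl22 (adjusted p = 0.651). At 12 h the mean rate of the median gene was 0.234% for E11.5, 0.235% for E14.5 and 0.209% for E16.5. That of the median member was 0.476%, 0.461% and 0.397%. The background rates were 0.133% to 0.138%, 0.128% to 0.135% and 0.108% to 0.110% over the replicates. The median gene was thus nearer the background, and label left with background subtracted was not tested. This measure therefore cannot decide whether the relative shortening holds.

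Rpl15 was the exception in relative half-life as it was in level. Its half-life was 5.02, 4.71 and 4.36 h for E11.5, 6.12, 5.56 and 7.28 h for E14.5, and 5.56, 5.53 and 6.12 h for E16.5, so that in hours it stayed while the median gene became shorter. On the scaled values it was longer by 1.18 ± 0.17 at E16.5 (adjusted p = 0.0134), without E16.5 replicate C with an adjusted p of 0.0557. Unscaled, the change was 1.04 h (adjusted p = 0.121). Rps15a was among the members whose half-life became shorter. Its level at its own gene rose from E11.5 to E16.5 with overlapping replicates, while that of its "-ps" genes fell.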

How the data were processed

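RNA was measured in 45 libraries of 3 stages, 5 chase times and 3 replicates. Per the study's methods, the authors mapped reads with SlamDunk to mm10, summed the exons of each GENCODE gene and deposited 9 tables, of which covered Ts, CPM and conversion rates were used. The deposited counts are T positions covered by aligned reads, so that 1 read adds several counts. The deposited CPM values are scaled by a total that exceeds the reads listed, and they gave whole reads within 0.01 of a read for 100% of values. The deposited conversion rates are converted over covered Ts as a fraction, printed here in percent. The authors' half-life and R2 columns were not used. No unlabelled library is among the samples, and depth is given with the results.

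Members and gene lists were chosen with earlier results of these data known. Stage comparisons at 0 h, the 12 h change within a stage and its difference between stages were tested with edgeR 4.0.16 (quasi-likelihood, TMM; R 4.3.3) on covered T counts of genes with more than 10 counts in every library, over all genes, with Benjamini-Hochberg adjustment and a threshold of 0.05; all adjusted p-values of levels are from these fits. This filter leaves out genes absent from any library of a fit. Half-lives were fitted as exp(-kx) through the 0 h rate, with Python 3.11.15 and SciPy 1.17.1, under the study's filters (over 500 covered Ts, under 24 h, R2 over 0.6) and tested with limma 3.58.1 on z-scores. An edgeR comparison between groups, a limma contrast and the decay fit were checked on simulated data. The fits of the chase, of its difference between stages and with a block were not. Sequence sharing used 50-base pieces and an annotation of GRCm38, and may differ from the annotation the authors used. Alternatives were DESeq2 1.42.0, other normalizations, recovered reads, no filter, other coverage and R2 minimums, a replicate block, other times, other fits, leaving out each replicate and, added after seeing the data, "-ps" reads added and members with at least 50% of pieces of their own. Wells of 1 pool deviated together (lowest correlation 0.0667 to 0.283 over the 9 pools), whereas the same letter at different stages did not (-0.0902 to 0.0777), so letters pair samples within a stage only.

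Named members are the 5 highest per kb, those under 1 cpm, up to 5 called changes with separate replicates in each direction and comparison, the 5 longest and shortest half-lives among members that passed in all 9 replicates, paralogs ending in l, and the 3 with most shared sequence. Some of these are counted in the totals but are not reported singly here.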

Additional observations from a re-analysis of the deposited data

How the results depend on the processing

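Counts below are percentages of the members tested. For the fall to E16.5, the members' median over the 20 alternatives ran from -0.62 to -0.42 against E14.5 and from -0.61 to -0.43 against E11.5. Of the members, 61.5% and 64.1% were called in either direction, and leaving out each replicate in turn gave 56.4% to 62.8% and 57.7% to 69.2%. Between E11.5 and E14.5, 19.2% were called, 11.54% to 20.5% without a replicate (lowest without E14.5 replicate C), and 29.5% with the 5 chase times summed.

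For the 12 h change, 6.49% were called at E11.5, and 10.4% by DESeq2, 10.0% of members with at least 50% of pieces of their own, 10.3% with over 1000 covered Ts, 18.2% with the replicate block and 1.3% to 5.13% without a replicate. At E14.5, 6.49% became 2.53% with "-ps" reads added, 10.0% of members with their own pieces, 22.1% with the replicate block and 0% to 3.85% without a replicate. At E16.5, 10.3% became 26.9% with the replicate block and 6.41% to 7.69% without a replicate. The difference of this change between stages was called for 0% of members, and for 1.28% by DESeq2, 1.23% without a filter, 1.39% on recovered reads, 3.85% with the replicate block and 0% to 1.28% without a replicate.

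The counts of half-life changes moved with the R2 minimum and with the scale. Between E11.5 and E14.5, 0% became 4.0% with an R2 over 0.8 and 0% to 2.86% without a replicate. Between E14.5 and E16.5, 5.71% became 32% with an R2 over 0.8, 2.63% with the background rate subtracted, 68.6% in hours, 16.7% of members with their own pieces, 0% each for label left at 12 h, centred log2 values and the replicate block, and 0% to 8.57% without a replicate. Between E11.5 and E16.5, 25.7% became 52.0% with an R2 over 0.8, 40% in hours, 3.39% for label left at 12 h, 11.4% on centred log2 values, 14.3% with the replicate block and 5.71% to 25.7% without a replicate. The median half-life of members moved beyond the replicates' SD to 8.90 h (E11.5), 9.50 h (E14.5) and 6.67 h (E16.5) with background subtracted, to 10.4 and 6.64 h (E14.5 and E16.5) with a free start value, to 6.52 h (E16.5) by log-linear regression and to 6.75 h (E16.5) for members with their own pieces. Without a replicate it stayed at 9.89 to 11.2 h, 11.1 to 11.7 h and 7.26 to 7.49 h. The members' label at 0 h relative to all genes became 0.899 (E14.5) and 0.874 (E16.5) over 2000 covered Ts, 0.901 and 0.893 with background subtracted, 0.888 and 0.861 as a summed rate, and 0.896 (E14.5) for members with their own pieces.

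Among the 47 named changes, 9 turned in direction under an alternative. With "-ps" reads added these were Rpl36a from E11.5 to E14.5 (-0.041), Rpl10a from E11.5 to E16.5 (-0.51), and the 12 h changes of Rpl10a (0.0099 and 0.022) and Rpl9 (0.047 and 0.035) at E14.5 and E16.5. Between 12 h libraries it was Rpl5 from E11.5 to E16.5 (-0.16). As label left at 12 h these were Rps15 and Rps4x from E11.5 to E16.5 (0.13 and 0.12). The replicate block, which pairs libraries by letter, kept 43 of the 47 calls, losing those of Rpl36 from E11.5 to E14.5, of Rpl22 from E14.5 to E16.5, and of Rps15 and Rps15a from E11.5 to E16.5. These losses are all between stages, where a letter joins pools of different embryos. With the 5 chase times summed, Rpsa from E11.5 to E14.5 (-0.16) and Rpl10a from E11.5 to E16.5 (0.22) were not called, and without a filter Rpl36 from E11.5 to E14.5 (0.46) and the 12 h change of Rpl21 at E11.5 (-0.29) were not. DESeq2, its size factors and recovered reads kept all 40 named calls of levels. The causes of these shifts were not tested. Low covered T counts limit the members near 1 cpm, and the 12 h chase limits half-lives beyond it.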
